A study of Mus musculus with 2 samples.

Results

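DOT1L is the enzyme that methylates lysine 79 of histone H3. The genes described here are Dot1l and 9 genes chosen by symbol: Mllt1, Mllt3, Mllt6, Mllt10, Aff1, Aff2, Aff3, Aff4 and Men1. All of the 9 but Men1 encode direct partners of DOT1L or proteins that share those partners. Men1 encodes menin, which is tied to them through MLL and its fusions. For brevity all 9 are called partners below. All 10 symbols were found once each among the 24319 rows of the deposited lists. The study sequenced RNA of skin lymphatic endothelial cells (LECs) of C57BL/6 mouse embryos at embryonic day E15.5, and asked how gene expression differs when Dot1l is lost. One library carries the genotype label Dot1l Knockout and is named Dot1lΔEC in the protocol, which marks the deletion as endothelial. The other carries the label Wild type. Each library was made from RNA pooled from 2 to 3 biological replicates, so there was 1 library per group. The sources used here name neither the driver of the deletion nor the deleted exons, and do not say how the cells were purified. A growth protocol for cultured dermal LECs is attached to both samples, and whether the sequenced cells were cultured is not stated. With 1 library per group no difference has a replicate check, and no p-value or standard deviation between replicates is given.

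DOT1L works as part of protein assemblies. AF9 (gene Mllt3) and ENL (Mllt1) carry a YEATS domain that binds acylated lysines of histone H3, and their C-terminal domain binds either DOT1L or a protein of the AF4 family through the same surface. AF10 (Mllt10) and AF17 (Mllt6) bind DOT1L, and AF10 promotes the higher methylation states of lysine 79. The AF4 family (Aff1 to Aff4) are scaffolds: AFF1 and AFF4 build the super elongation complex, which brings the kinase P-TEFb to paused RNA polymerase II. Menin (Men1) is an adaptor of the MLL histone H3 lysine 4 methyltransferases, whose leukaemic fusions often join MLL to AF4, AF9, AF10 or ENL.

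Aff1, Aff4 and Men1 are the partners called at least 2-fold higher or lower, as defined below. The bases upstream of these 3 and of the targeted gene are shown first, to set their promoters side by side. They are the 250 bases before the annotated start in RefSeq, on build GRCm38.p6, in lower case and 5′ to 3′. Capitals mark GGGCGG (an SP/KLF box), CCAAT, the TATA box written TATAAA, and the ETS core written CCGGAAG, searched on both strands. Aff1 and Men1 have more than 1 window, and the one shown is the furthest upstream and overlaps no annotated exon.
Dot1l (chr10:80754953-80755202, plus strand): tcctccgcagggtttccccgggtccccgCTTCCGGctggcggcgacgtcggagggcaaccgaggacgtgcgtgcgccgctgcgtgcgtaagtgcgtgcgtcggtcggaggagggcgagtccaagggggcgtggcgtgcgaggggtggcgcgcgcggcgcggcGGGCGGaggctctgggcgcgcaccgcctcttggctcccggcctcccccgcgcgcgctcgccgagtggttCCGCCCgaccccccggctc
Aff1 (chr5:103753912-103754161, plus strand): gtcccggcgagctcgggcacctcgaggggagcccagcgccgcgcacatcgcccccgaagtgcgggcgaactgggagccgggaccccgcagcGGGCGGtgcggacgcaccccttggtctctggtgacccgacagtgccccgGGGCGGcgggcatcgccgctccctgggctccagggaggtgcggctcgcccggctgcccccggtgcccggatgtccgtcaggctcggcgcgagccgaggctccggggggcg
Aff4 (chr11:53350517-53350766, plus strand): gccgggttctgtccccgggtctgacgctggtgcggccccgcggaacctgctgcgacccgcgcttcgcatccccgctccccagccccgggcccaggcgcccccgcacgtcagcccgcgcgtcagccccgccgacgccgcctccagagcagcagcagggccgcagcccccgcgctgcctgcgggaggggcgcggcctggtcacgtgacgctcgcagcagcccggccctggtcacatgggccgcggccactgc
Men1 (chr19:6334729-6334978, plus strand): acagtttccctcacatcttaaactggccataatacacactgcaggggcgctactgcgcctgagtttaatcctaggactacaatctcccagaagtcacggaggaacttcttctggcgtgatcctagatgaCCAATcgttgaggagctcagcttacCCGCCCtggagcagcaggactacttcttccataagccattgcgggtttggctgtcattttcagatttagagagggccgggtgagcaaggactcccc
The Dot1l window held 2 GGGCGG boxes and 1 CCGGAAG, at 78.4% G and C. The Aff1 window held 2 GGGCGG boxes at 78.8% G and C, and the Aff4 window none of the motifs at 79.2%. The Men1 window held 1 CCAAT and 1 GGGCGG and was lower in G and C, at 52.0%, close to the median of 52.4% over 32851 windows of all genes. RefSeq windows were found for all 10 genes, 16 in total, and the 3 windows of Men1 overlap. Counted once per gene over all its windows, GGGCGG was found in 9 of the 10 genes, CCAAT in 4, CCGGAAG in 2 and TATAAA in 0. Over the 27025 genes with a window, counted the same way, GGGCGG was found in 35.4%, CCAAT in 37.5%, CCGGAAG in 7.83% and TATAAA in 14.3%. A match describes these letters only.

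The values are FPKM (fragments per kilobase of transcript per 1000000 fragments), a level per length, so genes can be compared within a library. They summed to 530294 in the knockout-labelled library and 415537 in the wild-type library. The depth is not stated. Steps in the low values give about 9090000 fragments for the knockout-labelled library and 10200000 for wild type, if no further scaling was applied. Differences are given as log2(FPKM + 1), knockout-labelled library minus wild type, which understates the difference of low genes, and folds are ratios of the deposited FPKM. The words 2-fold higher or lower mean that this log2 difference reached 1 or -1, and genes were kept for the counts if either library listed them at 1 FPKM or more. Markers of other cell types differed between the libraries. All 12 macrophage and all 9 mast cell markers lay 2-fold or more above wild type in the knockout-labelled library: the summed FPKM of the macrophage list was 2987 in that library and 43.0 in wild type, and that of the mast cell list 13014 and 111. C1qc and Fcer1a were listed at 0 in wild type. All 10 pan-endothelial markers were at least 2-fold lower, with sums of 236 in the knockout-labelled library and 1156 in wild type, as were 6 of 7 lymphatic markers kept (sums of all 8, 614 and 844). Lyve1, the lymphatic marker within 2-fold, made up most of both sums, at 552 and 526 FPKM, and some macrophages also express it. Ccl21a, the marker of that list under 1 FPKM in both libraries, was listed at 0 in the knockout-labelled library and 0.538 FPKM in wild type. Fibroblast markers were at least 2-fold lower in 7 of 8 genes, pericyte and smooth muscle markers in 6 of 6 and keratinocyte markers in 4 of 5. In such bulk RNA, fewer cells of a type and less RNA per cell cannot be told apart. These shifts stand beside every difference below, and their part in each was not tested.

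Of the 10 genes, 2 were at least 2-fold higher in the knockout-labelled library (Aff1 and Aff4), 1 was at least 2-fold lower (Men1), 6 lay within 2-fold, and Aff2 was under 1 FPKM in both libraries and not counted. Over all 13296 genes kept, 16.8% were at least 2-fold higher, 15.49% at least 2-fold lower and 67.7% within 2-fold, so the share of members past 2-fold is near that of all genes. The median difference of the 9 members kept was -0.11 on the log2 scale, and 0.00 over all genes kept. Differences within the group ran from -1.14 to 2.03. Of all 10 members, Aff2 included, 3 had a higher value in the knockout-labelled library and 7 a lower one. Among the 7, Mllt10 (-0.07) and Mllt6 (-0.11) barely differed. Over all genes kept, 50.2% had a higher value, and 10 genes are too few to set against that share.

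**Figure D1:**
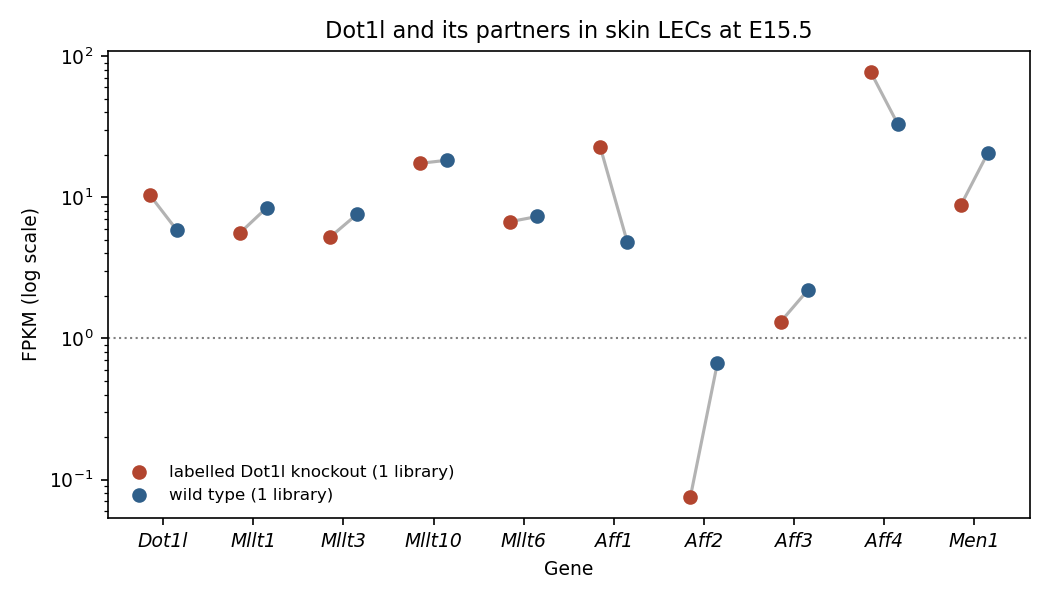
FPKM (log axis) of Dot1l and its 9 partners, with the knockout-labelled library on the left of each pair and wild type on the right; each point is 1 library and the dotted line is 1 FPKM. Aff4 had the highest value in both libraries, and Aff2 the lowest, under 1 FPKM in both.

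The targeted gene itself had 10.4 FPKM in the knockout-labelled library and 5.86 FPKM in wild type, so Dot1l was not lower there. The ratio is 1.77-fold with a log2 difference of 0.73. Among the genes above 0 in each library, Dot1l stood at percentile 60.6 in the knockout-labelled library and 49.3 in wild type. With its single coding transcript of the consensus set, 6808 nt long, these values correspond to about 622 and 396 fragments. The value is for the whole gene, and fragments from exons outside a deletion are counted with it. It therefore does not check the label. Each of the 5 other scalings also left Dot1l above its wild-type value, with log2 differences from 0.44 upward. The 0.44 came from rescaling each library to a sum of 1000000, which moved the median of all genes by -0.33, and relative to that median Dot1l stood at 0.77. The macrophage and mast cell lists were higher in the same library, and which cells the Dot1l transcripts came from was not tested.

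The YEATS readers had lower values in the knockout-labelled library, by similar amounts and within 2-fold. Mllt1, which encodes ENL, was 5.58 FPKM in that library and 8.45 FPKM in wild type. Mllt3, which encodes AF9, was 5.21 FPKM in the knockout-labelled library and 7.58 FPKM in wild type. Their log2 differences were -0.52 and -0.47. These genes encode close relatives, and their proportion was nearly the same in both libraries: Mllt3 over Mllt1 was 0.934 in the knockout-labelled library and 0.898 in wild type, a ratio that no scaling between libraries can move. Together they summed to 10.8 FPKM in the knockout-labelled library and 16.0 FPKM in wild type. At the estimated depth Mllt1 rests on about 174 fragments in the knockout-labelled library and 297 in wild type. For Mllt3 the estimate depends on the transcript: its shortest consensus coding transcript gives about 28 fragments in the knockout-labelled library and 46 in wild type, and its longest 278 and 456. How well the ratio of these genes is known therefore differs with the transcript assumed.

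The AF10 family differed least of the families. Mllt10, which encodes AF10, was 17.4 FPKM in the knockout-labelled library and 18.3 FPKM in wild type, a log2 difference of -0.07. Mllt6, which encodes AF17, was 6.72 FPKM in the knockout-labelled library and 7.31 FPKM in wild type, a log2 difference of -0.11. Mllt6 over Mllt10 was 0.386 in the knockout-labelled library and 0.400 in wild type. Mllt10 exons overlap those of Dnajc1 on the opposite strand in the reference annotation, and whether the authors' counting used strand is not given, so fragments from the overlap cannot be told apart. In both libraries Mllt10 ranked number 3 of the 10 genes by level, above the catalytic subunit: Dot1l over Mllt10 was 0.596 in the knockout-labelled library and 0.320 in wild type.

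By log2(FPKM + 1) of the deposited values, the AF4 family held the 2 largest differences of the 10 genes. Aff1 and Aff4 were at least 2-fold higher in the knockout-labelled library, while Aff2 and Aff3 had lower values there. That order depends on the setting. At log2(FPKM + 0.1) Aff2 was -2.14 and Aff4 1.22, and with each library brought to a total of 1000000 FPKM Men1 was -1.53. Aff4, a scaffold of the super elongation complex, was the most abundant member in each library, at 77.2 FPKM in the knockout-labelled library and 33.1 FPKM in wild type. That is 2.33-fold, a log2 difference of 1.20. With each library brought to a total of 1000000 FPKM the difference of Aff4 was 0.86, short of 2-fold, beside the shift of -0.33 in the median of all genes. Aff1, the gene of AF4 itself, was 22.6 FPKM in the knockout-labelled library and 4.80 FPKM in wild type, 4.71-fold and a log2 difference of 2.03. Among the differences of all genes kept, that of Aff1 stood at percentile 93.2 and that of Aff4 at percentile 86.2. By level Aff1 ranked 2 of the 10 genes in the knockout-labelled library and 8 in wild type. By the lengths of their consensus coding transcripts, Aff1 rests on about 1671 fragments in the knockout-labelled library and 400 in wild type, and Aff4 on about 6951 and 3354.

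The other members of the family were low. Aff3, which encodes LAF4, was 1.31 FPKM in the knockout-labelled library and 2.19 FPKM in wild type, a log2 difference of -0.47. Aff2, the gene of the FMR2 protein linked to a fragile site on the X chromosome, was 8.88-fold lower in the knockout-labelled library. Its values were 0.0758 FPKM there and 0.673 FPKM in wild type, a log2 difference of -0.64. Those correspond to about 3 and 30 fragments, so the first value is set by a handful of fragments. Summed over its 4 genes the family reached 101 FPKM in the knockout-labelled library and 40.8 FPKM in wild type, 2.48-fold. Within that sum, Aff1 made up 22.3% in the knockout-labelled library and 11.8% in wild type, and Aff4 76.3% and 81.2%. The ratio of Aff1 to Aff4 was 0.293 in the knockout-labelled library and 0.145 in wild type, a 2.02-fold higher ratio. The exact counting error cannot be given, since the depth is an estimate. The macrophage and mast cell lists were higher in the same library, and which cells the AF4 family transcripts came from was not tested.

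**Figure D2:**
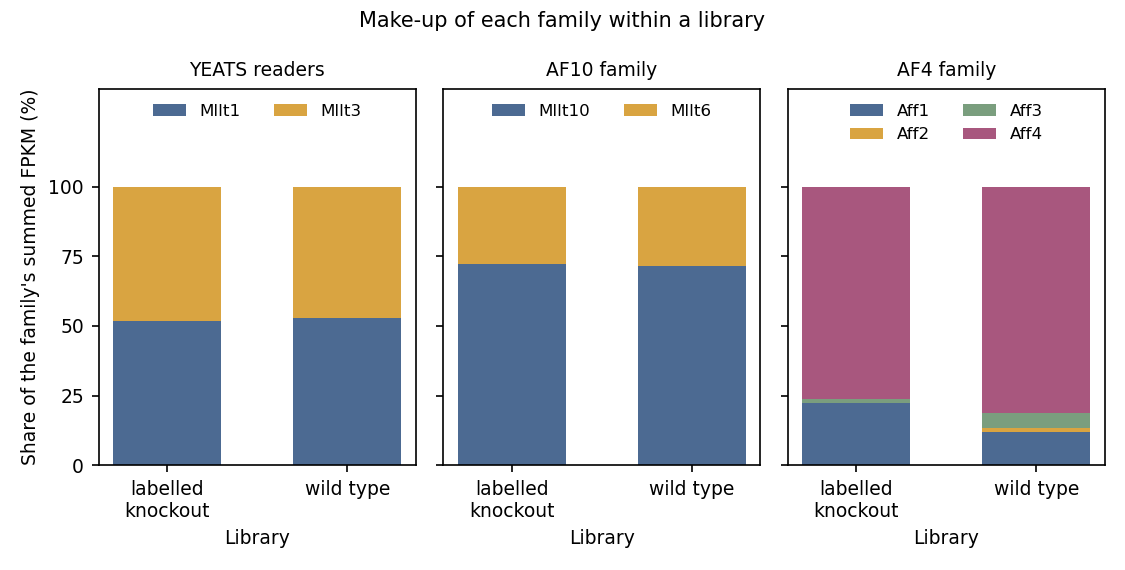
Share (%) of each family's summed FPKM taken by each gene, knockout-labelled library left and wild type right in each panel, 1 library each. The YEATS readers and the AF10 family have nearly the same make-up in both libraries, while Aff1 takes 22.3% of the AF4 family in the knockout-labelled library and 11.8% in wild type.

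Men1, the gene of menin, had the lowest difference of the 10 genes by log2(FPKM + 1), while Aff2 was lower at log2(FPKM + 0.1). It was 8.77 FPKM in the knockout-labelled library and 20.6 FPKM in wild type, 2.35-fold lower, with a log2 difference of -1.14. Among the differences of all genes kept it stood at percentile 12.7. The endothelial, fibroblast, pericyte and keratinocyte lists were lower in the same library, and the macrophage and mast cell lists higher. Which cells the Men1 transcripts came from was not tested. By level Men1 ranked 5 of the 10 genes in the knockout-labelled library and 2 in wild type. The estimate is about 221 fragments in the knockout-labelled library and 585 in wild type for its longest consensus coding transcript. Under log2(FPKM + 5) the log2 difference was -0.89, short of 2-fold, and under every scaling of the libraries to each other by sums, quartile or median it was -1.14 or below. Set relative to the median of 10 pan-endothelial markers, an alternative chosen after seeing the data, every gene moves up alike: the median of all genes becomes 2.26 and Men1 1.11, so relative to all genes Men1 stays at -1.15.

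**Figure D3:**
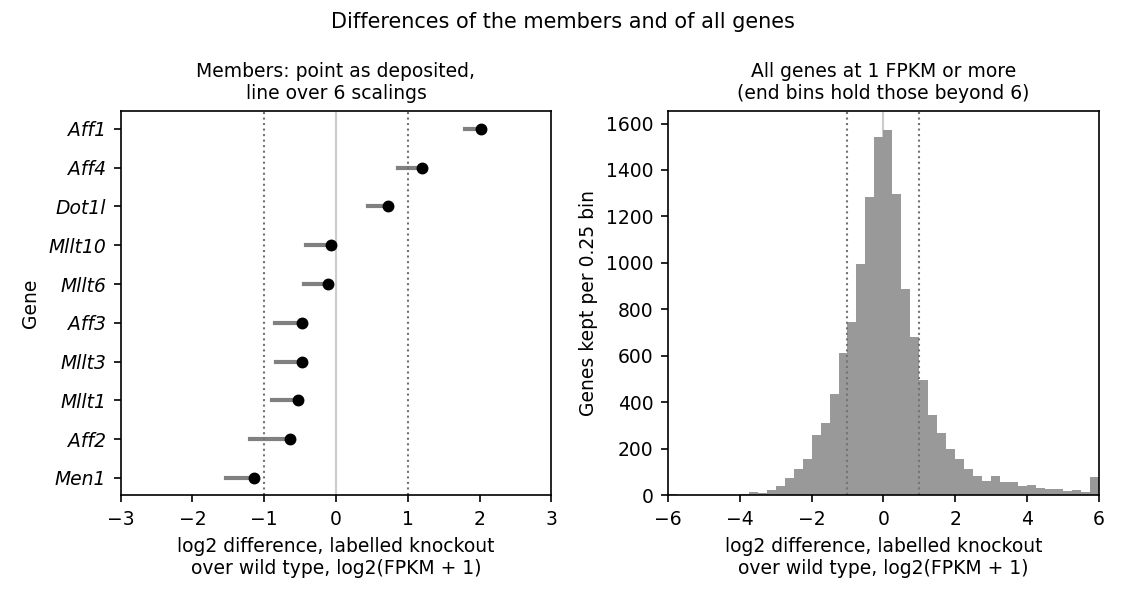
Left, log2 difference (knockout-labelled library over wild type, log2(FPKM + 1)) of each member, with the deposited scale as a point and the range over 6 scalings as a line; right, the number of all genes kept in bins of 0.25 of the same difference. Dotted lines mark 2-fold; Aff1, Aff4 and Men1 lie past it on the deposited scale, and Aff4 drops to 0.86 when each library is rescaled to a sum of 1000000.

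Genes that work with these proteins were mostly within 2-fold. In 4 lists of partners outside the 10 members, 38 genes were kept: 32 lay within 2-fold (84.2%, against 67.7% of all genes), 3 were higher and 3 lower, with a median of 0.17. The lists were chosen with earlier results of these data known and were not matched to all genes by level. The 2 shares are therefore not from like sets of genes. In the P-TEFb and elongation list 3 of 11 kept genes were at least 2-fold higher and 0 lower, beside 16.8% of all genes higher, with a median of 0.69. Those 3 were Ell2, an elongation factor of the super elongation complex, at 18.5 FPKM in the knockout-labelled library and 4.80 FPKM in wild type; its binding partner Eaf1, at 39.9 and 10.5 FPKM; and Hexim1, an inhibitor of P-TEFb, at 48.4 and 16.4 FPKM. Cyclin T1 (Ccnt1), a P-TEFb subunit, was 37.5 FPKM in the knockout-labelled library and 28.7 in wild type. Larp7, which stabilises the 7SK RNA that holds P-TEFb inactive, was 31.3 and 60.7 FPKM, with a log2 difference of -0.93. Cdk9, the kinase of P-TEFb, was 16.2 FPKM in the knockout-labelled library and 7.80 FPKM in wild type, just short of the call at 0.97. Cdk9 and Kmt2a below are named for their roles, after their values were seen. The P-TEFb list also had 2 genes under 1 FPKM in both libraries, Ell3 and Eaf2.

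The MLL and menin complex list had 1 of 9 genes lower by at least 2-fold and 0 higher, beside 15.49% of all genes lower, and its median was 0.16. The lower gene was Psip1, which encodes LEDGF, the chromatin protein that menin and MLL bind together. It was 52.8 FPKM in the knockout-labelled library and 193 FPKM in wild type, 3.65-fold lower. Kmt2a, the gene of MLL, was 9.42 FPKM in the knockout-labelled library and 7.05 FPKM in wild type, while Dpy30 (43.1 and 58.5) and Wdr5 (25.5 and 22.2), subunits of its core, were within 2-fold. Among genes for histone H2B ubiquitylation, which stimulates DOT1L, and for the PAF1 complex, 1 of 11 was at least 2-fold lower and 0 higher. Over all genes kept, 15.49% were lower and 16.8% higher, and the median of the list was -0.17. Its lower gene was Rtf1, at 14.6 FPKM in the knockout-labelled library and 33.4 FPKM in wild type. The ubiquitin ligase Rnf20 was 41.9 and 57.5 FPKM, and the conjugating enzyme Ube2b 55.1 and 41.5. In the list of other proteins that bind AF9, ENL or DOT1L or carry a YEATS domain, 1 of 7 was at least 2-fold lower. No gene of it was higher, beside the same 15.49% lower and 16.8% higher of all genes. The lower gene was Yeats2, a subunit of the ATAC acetyltransferase complex, at 9.86 FPKM in the knockout-labelled library and 22.5 FPKM in wild type. The median of that list was -0.04. Ctnnb1 (267 and 408 FPKM) and Skp1a (117 and 170), both found with DOT1L in purified complexes, were within 2-fold.

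Genes that depend on DOT1L in human and mouse leukaemias with MLL fusions differed in both directions. Of 9 genes kept, 4 were lower by 2-fold or more and 1 was higher, beside 15.49% lower and 16.8% higher among all genes, with a median of -0.89. Hoxa9 was 0.453 FPKM in the knockout-labelled library and 4.45 FPKM in wild type, Hoxa7 0.245 and 2.33, Hoxa10 0.493 and 2.47, and the HOX cofactor Meis1 7.73 and 19.0. Hoxa7, Hoxa9 and Hoxa10 were under 1 FPKM in the knockout-labelled library and were kept only through wild type. They could be called lower or within 2-fold but never higher, so the count and the median of this list lean that way. Myb, a transcription factor of blood progenitors, was 28.3 FPKM in the knockout-labelled library and 4.86 FPKM in wild type. Jmjd1c (49.5 and 40.6 FPKM) and Mef2c (41.3 and 38.9) were within 2-fold. The median of this list was 0.18 when the minimum was raised to 5 FPKM. Flt3, with the higher value in the knockout-labelled library, was under 1 FPKM in both, at 0.657 and 0.0836, and was not counted.

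**Figure D4:**
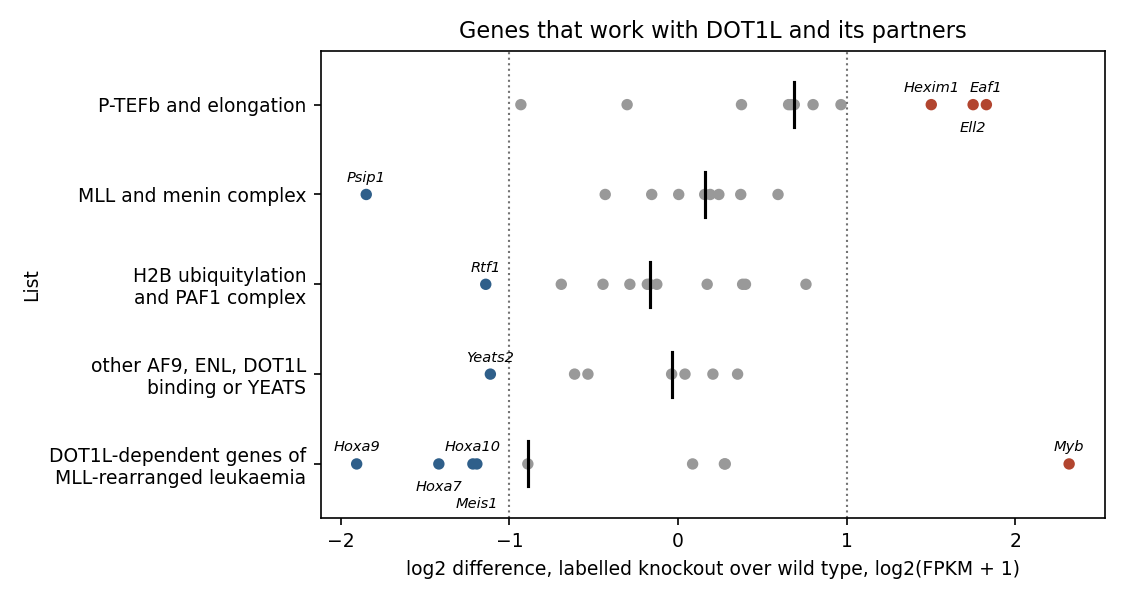
log2 difference (knockout-labelled library over wild type, log2(FPKM + 1)) of the kept genes of 5 lists, each point 1 gene and the black bar the list median; red and blue points are at least 2-fold higher and lower. The P-TEFb and elongation list has its 3 coloured genes on the higher side, and each of the next 3 lists has 1 on the lower side.

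The genes nearest to each member, by Euclidean distance of log2(FPKM + 1) over the 2 libraries, were listed for Dot1l and the 3 members past 2-fold. For Dot1l they were Nop9, Lyplal1 and Itprip, at distances of 0.0215, 0.0259 and 0.0347, and 27 genes lay within 0.1. For Aff1 they were Fam213b, Casp4 and Pla2g4a, at 0.0124, 0.0503 and 0.102. For Aff4 they were Spred1, Azin1 and Mcfd2, with Spred1 at 0.0144. For Men1, Siah1a lay nearest, at 0.0245. Over 2 libraries such nearness says only that the values are alike.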

How the data were processed

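The FPKM values were deposited by the authors, 1 value per gene and library. STAR 2.5.2b, Cufflinks 2.2.1, Cuffnorm, R 3.3.2 and the build mm9 are named in the submitters' processing notes, with no role or order. RNA was pooled from 2 to 3 replicates before library making, per the labels' protocols. The sources used here do not give the annotation, the use of strand or how the libraries were scaled to each other. Values were compared with Python 3.11.15, pandas 2.3.3 and numpy 2.4.6, with 1 library a group and no test. The code making the 2-fold calls was tested on simulated data with known folds, without noise and with low genes left out. That checks the code only and says nothing of replicate error or of calls on low genes. Depth was estimated by scanning 500 step sizes on genes with 1 annotated transcript of at least 2500 nt (GENCODE, lengths only) and an assumed fragment length of 200 nt; 76.6% of 175 low values of the knockout-labelled library and 83.0% of 159 of wild type came to within 0.1 of whole fragments. Where nearly all of those were even numbers, the step was doubled, as in the knockout-labelled library. A count model was not run. Named genes are the members, the list genes past 2-fold with up to 2 of the highest within it, and the 3 nearest genes, not all of which are reported here. The members, lists and tests were chosen with earlier results of these data known.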

Additional observations from a re-analysis of the deposited data

How the results depend on the processing

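No paired analysis was possible because each group has 1 library, and for the same reason no library could be left out. Alternatives were pseudocounts of 0.1 and 5, 5 scalings, no minimum or a minimum of 5 FPKM, and 1.5-fold and 3-fold thresholds. Members called higher numbered 2 in the report, 1 when both libraries were brought to a total of 1000000 and 1 with a 3-fold threshold. Those called lower numbered 1 in the report, 0 at log2(FPKM + 5) and 0 with a 3-fold threshold. Dot1l, at 0.73, passes a 1.5-fold threshold. With the median of the pan-endothelial markers set to 0, chosen after seeing the data, every gene moves up alike, to a median of 2.26 over all genes: Dot1l was 2.98 and Men1 1.11, or 0.73 and -1.15 relative to that median. There 9 members were higher and 0 lower, beside 11863 higher and 38 lower of all 13296 genes, which says nothing particular of the members. Of all genes, those called higher numbered 2231 in the report, 1323 at log2(FPKM + 5) and 1900 at totals of 1000000. They numbered 3464 with a 1.5-fold threshold and 1298 with a 3-fold threshold. Genes called lower numbered 2060 in the report, 921 at log2(FPKM + 5) and 3330 at totals of 1000000. With a 1.5-fold threshold they numbered 3450, and with a 3-fold threshold 906. Equal totals moved the median of the MLL and menin list to -0.18, beside -0.33 over all genes; the report has 0.16 beside 0.00. The median of the leukaemia list, -0.89 in the report, was -0.44 at log2(FPKM + 5), -0.40 with no minimum, -1.02 at a pseudocount of 0.1, -1.29 at equal totals, -1.11 with small RNAs left out of the totals, and 0.18 at a minimum of 5 FPKM, where low genes such as Hoxa9 drop out. The cause of the other shifts was not tested.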
